A study of Mus musculus with 8 samples.

Results

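The 9 genes described here, Stab1, Stab2, Lyve1, Clec4g, Kdr, Pecam1, Mrc1, Oit3 and Gata4, are markers of the liver sinusoidal endothelial cell. They were chosen by gene name as markers of this cell, by a rule that uses no measured value but was set with earlier results of these data known, and were represented by 12 of the 55681 probes of the array, each of 60 bases and each kept apart. Expression was measured in the liver of 4 NZO (strain NZO/HiBomDife, New Zealand Obese) and 4 B6 (C57BL/6) mice, 1 array per mouse. All mice were male, 6 weeks of age and received a diet with 45% fat, no other treatment or transgene is given, and mice on another diet were not analysed here, so that differences are those between strains on this diet. The NZO mouse is a polygenic model of obesity and diabetes susceptibility, and B6 the lean and diabetes-resistant counterpart. Each mouse is named below by its strain and its number in the labels, and equal numbers in both strains denote different mice.

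Sinusoidal endothelial cells line the smallest vessels of the liver. Unlike the continuous endothelium of larger vessels they have open pores and no organised basement membrane, and they clear hyaluronan, modified lipoproteins and other waste from the blood through scavenger and lectin receptors. They respond to vascular endothelial growth factor made by the neighbouring cells, and the transcription factor Gata4 is known to keep them in the sinusoidal state. Whole liver was measured, in which hepatocytes provide most of the RNA, and fewer cells of a type and less RNA per cell cannot be told apart in such samples.

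Stab2 was covered by 3 probes and Kdr by 2, whereas the other 7 genes had 1 probe each. The 30 bases at the start of the probes of Stab2, Kdr and Lyve1 are shown because the probes of the first 2 genes gave different strain differences and because Lyve1 was the gene with the lowest adjusted p among those lower in NZO. The bases are given 5′ to 3′ on the strand of the transcript, as copied from the scanner files, and are written here in lower case throughout.
Stab2 A_55_P2026487: tataatgcctgactctgggaacaagcaaac
Stab2 A_55_P2026492: ggcctctgtcatatgtgacctcacatacat
Stab2 A_55_P1974028: taagcaccaaaggcaaggcttcatcccata
Kdr A_55_P2094469: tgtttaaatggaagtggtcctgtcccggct
Kdr A_51_P316553: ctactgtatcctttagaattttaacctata
Lyve1 A_52_P686785: cactttgtgtgcctttaacaaatacattat
Per the file headers the coordinates refer to mm9. In the direction of transcription the Stab2 probes lay at chr10:86455257-86455316 (transcript ENSMUST00000099390), chr10:86381487-86381546 (ENSMUST00000160580) and chr10:86303982-86304041 (NM_138673, from base 8046), all on the minus strand. The first probe was 151 kb and the second 77.5 kb upstream of the last one. The Kdr probes lay at chr5:76330395-76330454 and chr5:76329309-76329368 on the minus strand, 1.09 kb apart in the same transcript (NM_010612, from bases 4291 and 5377), and the Lyve1 probe at chr7:117994171-117994230 on the minus strand (NM_053247, from base 2497). The remaining members were measured at chr14:31952288-31952347 (Stab1), chr8:3716182-3716241 (Clec4g), chr11:106540864-106540923 (Pecam1), chr2:14253273-14253332 (Mrc1), chr10:58886254-58886313 (Oit3) and chr14:63817858-63817917 (Gata4).

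All 12 probes were well above background on 8 of 8 arrays, and no spot was saturated. The processed signal was used on a log2 scale after subtraction of the 75th percentile of each array, so that a level of 0 means a signal equal to that percentile and a step of 1 means a doubling. The arrays held 59305 spots that are not controls. Between 50.4 and 55.0% of them were well above background in NZO and between 53.1 and 60.1% in B6, and the 75th percentile lay between 118.7 and 141.9 units of signal in NZO and between 136 and 159 units in B6. With 4 mice per strain, precision is set by the number of arrays. The tissue label was borne out by its markers: the hepatocyte genes Alb (level 11.21 ± 0.02 in NZO and 10.94 ± 0.23 in B6, SD, n = 4) and Ttr (9.79 ± 0.03 and 9.64 ± 0.04, SD, n = 4), which encode plasma proteins, were detected on every array.

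The arrays came from 5 slides and 2 scan days. Slide 1 carried NZO 003, B6 010 and B6 015 and was the only slide with both strains, slide 2 carried NZO 009 and NZO 011, and NZO 007, B6 009 and B6 011 lay on slides of their own. Scan day 1 held NZO 003, NZO 009, NZO 011, B6 010 and B6 015, and day 2 held NZO 007, B6 009 and B6 011. Differences within slide 1 and within each scan day are therefore given beside the main results.

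Few of the sinusoidal genes passed the tests between the strains. Of the 12 probes, 3 had a positive and 9 a negative log2 difference (NZO minus B6), with a median of -0.22, whereas the median over all 27640 probes tested was 0.01. The median of the member probes lay between -0.28 and -0.15 when single mice were left out. The median size of the difference without its sign was 0.30 for the members and 0.24 for all probes tested. By the thresholds of the methods (unadjusted p of at most 0.05 and a log2 difference of at least 0.7 in size, limma) 0 of the 12 probes were higher in NZO and 1, a Stab2 probe, was lower. Of all probes tested, 5.16% were called higher and 7.08% lower by this rule. With the p adjusted by Benjamini-Hochberg over all probes and the same limit on the difference, 0 member probes were called in either direction, against 4.34% of all probes called higher and 5.28% called lower. When the adjusted p alone was used, 1 member probe was higher (Stab2) and 1 lower (Lyve1), against 6.78% and 7.45% of all probes, which is near the background in each direction.

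**Figure D1:**
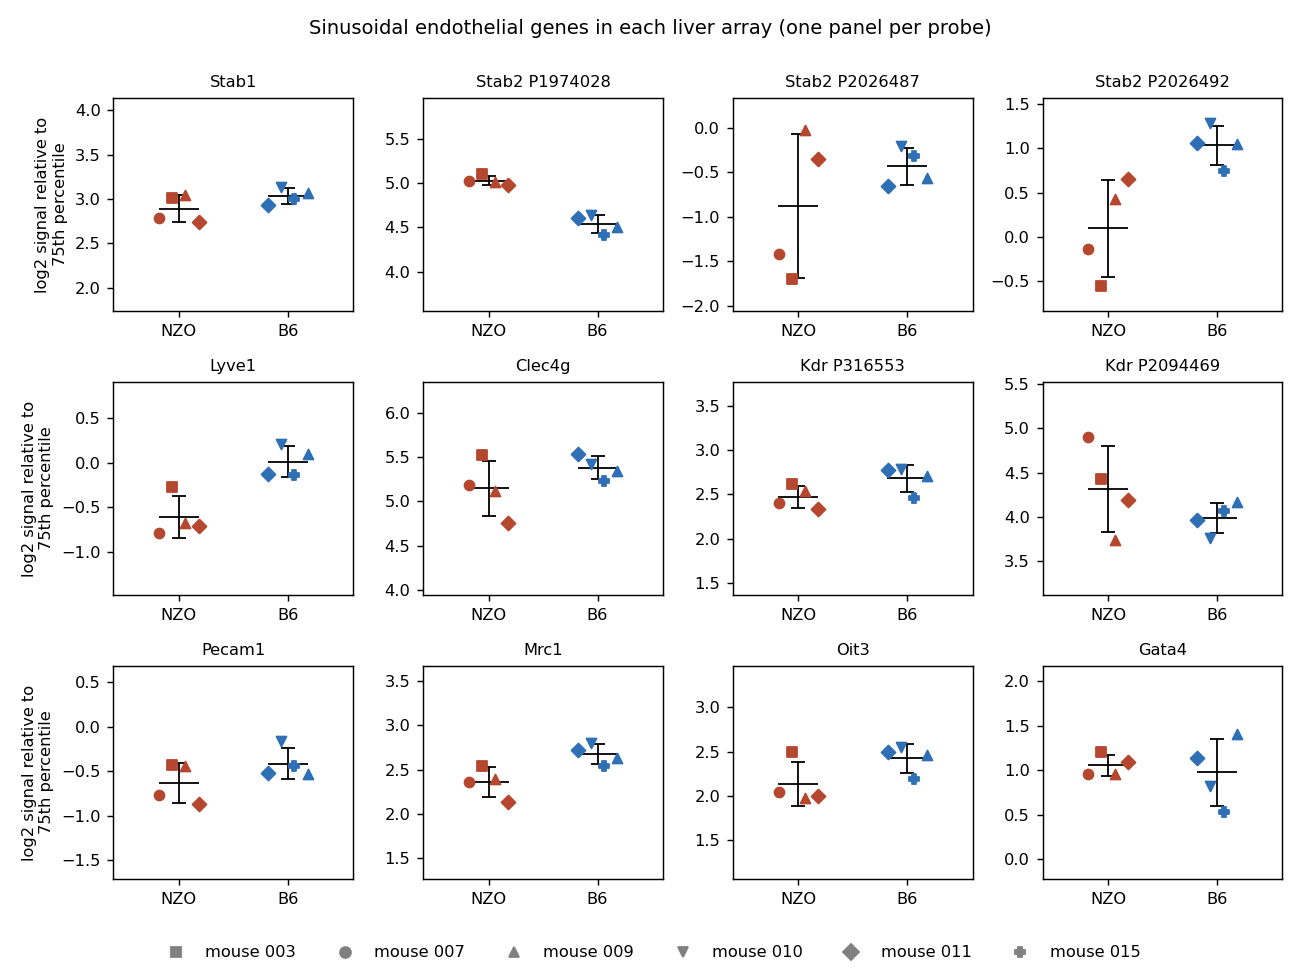
Level of each member probe on the 8 arrays (y axis: log2 signal relative to the 75th percentile of the array; every panel spans 2.4 units; symbols: mice, red NZO, blue B6; bar and whiskers: mean and SD of 4 mice). The NZO and B6 symbols stand apart in 3 panels, with NZO above for Stab2 P1974028 and below for Stab2 P2026492 and Lyve1.

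Among the receptors for hyaluronan and other waste, Stab2 gave opposite strain differences depending on the probe. Stab2 encodes stabilin-2, the main endocytic receptor for hyaluronan in the sinusoid. The Stab2 probes are annotated to different transcripts, and which transcripts each of them measures was not tested. The last probe in the direction of transcription was A_55_P1974028. Its levels were 5.02 (NZO 007), 5.10 (NZO 003), 5.01 (NZO 009) and 4.97 (NZO 011) against 4.61 (B6 011), 4.64 (B6 010), 4.42 (B6 015) and 4.50 (B6 009). All NZO mice were above all B6 mice, and the spread within each strain was small. The log2 difference was 0.48 (SE 0.091, 95% interval 0.27 to 0.69, 1.40-fold, limma adjusted p = 0.00889). In the deposited values, which are not scaled between arrays, it was 0.29 and did not pass (adjusted p = 0.13, limma). Within slide 1 the difference was 0.57, on scan day 1 it was 0.50 and on day 2 it was 0.46.

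The middle Stab2 probe, A_55_P2026492, showed the reverse order. Its levels were -0.14 (NZO 007), -0.55 (NZO 003), 0.43 (NZO 009) and 0.66 (NZO 011) against 1.06 (B6 011), 1.28 (B6 010), 0.74 (B6 015) and 1.05 (B6 009). All NZO mice were below all B6 mice, although NZO 011 and B6 015 were close to each other and NZO 007 and NZO 003 lay well below the other NZO mice. The log2 difference was -0.93 (SE 0.26, 95% interval -1.54 to -0.33, 1.91-fold lower), with an unadjusted p of 0.00727 and an adjusted p of 0.0508 in limma, just outside the limit. It was -1.56 within slide 1, -0.83 on scan day 1 and -1.19 on day 2.

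The first Stab2 probe, A_55_P2026487, had levels of -1.42 (NZO 007), -1.70 (NZO 003), -0.02 (NZO 009) and -0.35 (NZO 011) against -0.65 (B6 011), -0.20 (B6 010), -0.32 (B6 015) and -0.56 (B6 009). The same 2 NZO mice, 007 and 003, were the lowest, whereas NZO 009 was the highest of all 8, and the strains overlapped. The log2 difference of -0.44 (SE 0.37, 95% interval -1.28 to 0.40, adjusted p = 0.48, limma) did not pass the test. It was -1.44 within slide 1, where the NZO mouse is NZO 003, -0.43 on scan day 1 and -0.82 on day 2. Without NZO 003 it was -0.17, without NZO 007 -0.26 and without NZO 009 -0.73.

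The log2 ratio of the last to the middle Stab2 probe, which does not depend on the scaling between arrays, restates these opposite differences in 1 number and is given as a description with no test. It was higher in NZO than in B6 by 1.42, between 1.18 and 1.62 when single mice were left out. The ratio of the last to the first probe was higher in NZO by 0.93 and that of the first to the middle probe by 0.49, with overlap of the strains in both cases.

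**Figure D2:**
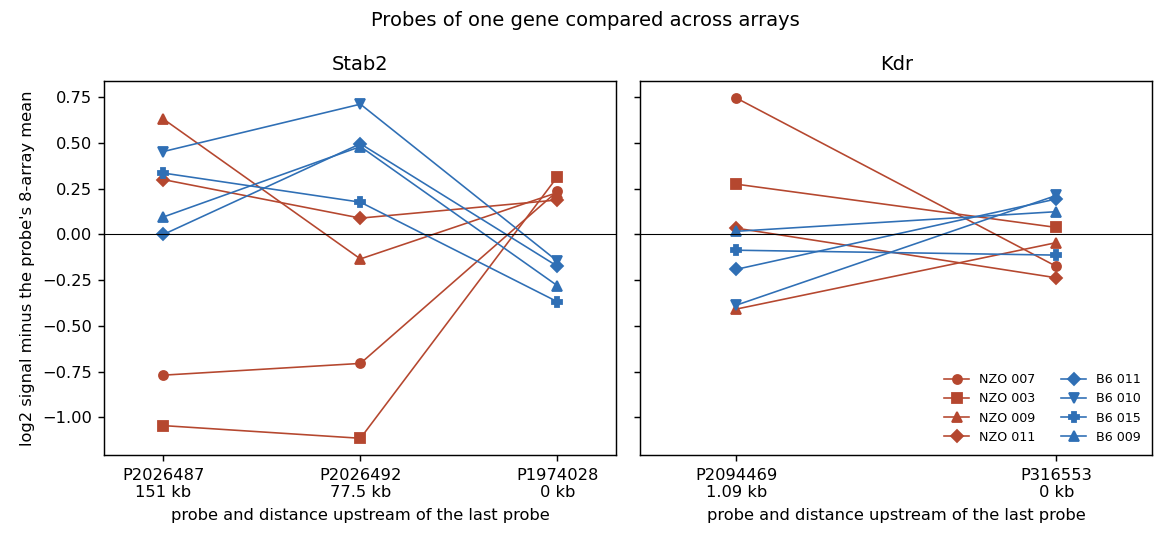
Signal of each Stab2 and Kdr probe on each array, as the deviation (log2) from the mean of that probe over the 8 arrays. The x axis orders the probes by category in the direction of transcription and gives their distance from the last probe in kb. Lines join the probes of 1 mouse. The Stab2 probes are annotated to different transcripts. The NZO lines (red) cross the B6 lines (blue) between the middle and the last Stab2 probe, and NZO 007 and NZO 003 lie lowest at the first and the middle probe.

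Lyve1, a membrane receptor for hyaluronan that is also found on lymphatic endothelium, was lower in NZO. Its levels were -0.79 (NZO 007), -0.27 (NZO 003), -0.68 (NZO 009) and -0.72 (NZO 011) against -0.13 (B6 011), 0.21 (B6 010), -0.13 (B6 015) and 0.10 (B6 009). All NZO mice were below all B6 mice, and NZO 003 was the NZO mouse nearest to B6. The log2 difference was -0.62 (SE 0.15, 95% interval -0.96 to -0.29, 1.54-fold lower, limma adjusted p = 0.0241), which is under the limit of 0.7 in size. It was -0.31 within slide 1, -0.59 on scan day 1 and -0.78 on day 2, and the adjusted p rose to between 0.0542 and 0.0714 in limma when NZO 007, NZO 009, NZO 011, B6 010 or B6 009 was left out. Prox1 (log2 difference 0.11, adjusted p = 0.815) and Pdpn (-0.12, adjusted p = 0.789, limma), listed as lymphatic markers, did not pass the test. In whole liver their signal need not stem from lymphatic endothelium alone, and the part of lymphatic endothelium in the Lyve1 difference was not tested.

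Non-overlap of the strains was thus found for 1 member probe higher in NZO and 2 lower, whereas 11.3% of all probes tested were higher in NZO without overlap and 10.7% lower.

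Stab1, Mrc1 and Clec4g, the other receptors of the group, did not pass the adjusted test. Stab1 encodes stabilin-1, the close relative of stabilin-2, which is also made by some macrophages. Its level was 2.89 ± 0.15 in NZO and 3.04 ± 0.09 in B6 (SD, n = 4), with a difference of -0.14 (SE 0.11, 95% interval -0.39 to 0.10, adjusted p = 0.435, limma). It was -0.06 within slide 1, -0.14 on scan day 1 and -0.22 on day 2, and -0.09 without NZO 011. The interval leaves room for a level in NZO down to 76.2% of that in B6 and up to 107.5%.

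Mrc1, the mannose receptor, takes up collagen fragments and glycoproteins with terminal mannose and is shared with Kupffer cells, the macrophages of the sinusoid. Its levels were 2.37 (NZO 007), 2.54 (NZO 003), 2.39 (NZO 009) and 2.14 (NZO 011) against 2.72 (B6 011), 2.80 (B6 010), 2.54 (B6 015) and 2.63 (B6 009). The strains met at NZO 003 and B6 015, the other NZO mice being below all B6 mice. The difference of -0.31 (SE 0.12, 95% interval -0.58 to -0.05) had an unadjusted p of 0.0253 and an adjusted p of 0.117 in limma. The adjusted p was within 0.05 with normexp (-0.38, adjusted p = 0.0363) and in the deposited values (-0.55, adjusted p = 0.0243, limma), which are not scaled between arrays. With median scaling Mrc1 was at -0.25 (adjusted p = 0.422, limma). Scaling to the pan-endothelial probes described below gave -0.16 (adjusted p = 0.322, limma). The difference was -0.13 within slide 1 and -0.31 on each scan day.

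Clec4g encodes LSECtin, a C-type lectin of the sinusoidal endothelium. Its levels were 5.19 (NZO 007), 5.52 (NZO 003), 5.12 (NZO 009) and 4.76 (NZO 011) against 5.53 (B6 011), 5.42 (B6 010), 5.23 (B6 015) and 5.35 (B6 009). NZO 003 was nearly as high as the highest B6 mouse, NZO 011 was the lowest of all, and the difference of -0.23 (SE 0.16, 95% interval -0.61 to 0.14, adjusted p = 0.397, limma) did not pass the test. Within slide 1, where NZO 003 is the only NZO mouse, it was 0.20, and on the scan days it was -0.19 and -0.25. It was -0.36 without NZO 003 and -0.10 without NZO 011.

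Kdr encodes the main signalling receptor for vascular endothelial growth factor, and its probes differed in sign. The probe A_51_P316553 was printed on 10 spots of each array and had levels of 2.40 (NZO 007), 2.62 (NZO 003), 2.53 (NZO 009) and 2.34 (NZO 011) against 2.77 (B6 011), 2.79 (B6 010), 2.46 (B6 015) and 2.70 (B6 009). Its 10 spots varied by an SD of 0.035 to 0.061 within an array, which is the error from spot to spot for this probe. This error was less than the SD between mice of 0.12 in NZO and 0.15 in B6. The strains overlapped and the difference of this probe was -0.21 (SE 0.11, 95% interval -0.47 to 0.05, adjusted p = 0.275, limma), with values of -0.01 within slide 1, -0.13 on scan day 1 and -0.33 on day 2.

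The upstream Kdr probe, A_55_P2094469, had levels of 4.90 (NZO 007), 4.43 (NZO 003), 3.74 (NZO 009) and 4.19 (NZO 011) against 3.96 (B6 011), 3.76 (B6 010), 4.07 (B6 015) and 4.17 (B6 009). NZO 007 was the highest and NZO 009 the lowest of the 8 mice, so that the NZO range enclosed that of B6. The difference was 0.32 (SE 0.23, 95% interval -0.21 to 0.85, adjusted p = 0.41, limma). It was 0.51 within slide 1, 0.20 on scan day 1 and 0.83 on day 2, and it moved to 0.13 without NZO 007 and to 0.51 without NZO 009. No change of Kdr can be read from either probe.

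Pecam1, an adhesion molecule found on most endothelial cells and on platelets and some leukocytes, had a level of -0.63 ± 0.23 in NZO and -0.41 ± 0.17 in B6 (SD, n = 4). The strains overlapped, and the difference of -0.22 (SE 0.14, 95% interval -0.55 to 0.12, adjusted p = 0.379, limma) did not pass the test. It was -0.13 within slide 1, -0.28 on scan day 1 and -0.24 on day 2, and -0.13 without NZO 011 or without B6 010. Oit3, a secreted protein with a zona pellucida domain that marks liver sinusoidal endothelium, had levels of 2.05 (NZO 007), 2.50 (NZO 003), 1.97 (NZO 009) and 2.0 (NZO 011) against 2.49 (B6 011), 2.55 (B6 010), 2.19 (B6 015) and 2.46 (B6 009). Of the NZO mice only NZO 003 lay within the B6 range. The Oit3 difference was -0.29 (SE 0.15, 95% interval -0.63 to 0.05, adjusted p = 0.243, limma), and it was 0.13 within slide 1, -0.21 on scan day 1 and -0.43 on day 2.

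Gata4, the transcription factor of the group, is also present in hepatocytes. Its levels were 0.96 (NZO 007), 1.2 (NZO 003), 0.96 (NZO 009) and 1.1 (NZO 011), between the lowest and the highest of B6 at 1.14 (B6 011), 0.82 (B6 010), 0.54 (B6 015) and 1.41 (B6 009). The B6 mice thus varied more (SD 0.38) than the NZO mice (SD 0.12), a difference in spread that was not tested. The strain difference was 0.08 (SE 0.19, 95% interval -0.35 to 0.51, adjusted p = 0.826, limma). It was 0.52 within slide 1, 0.41 on scan day 1 and -0.31 on day 2, so that no direction can be read for Gata4.

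**Figure D3:**
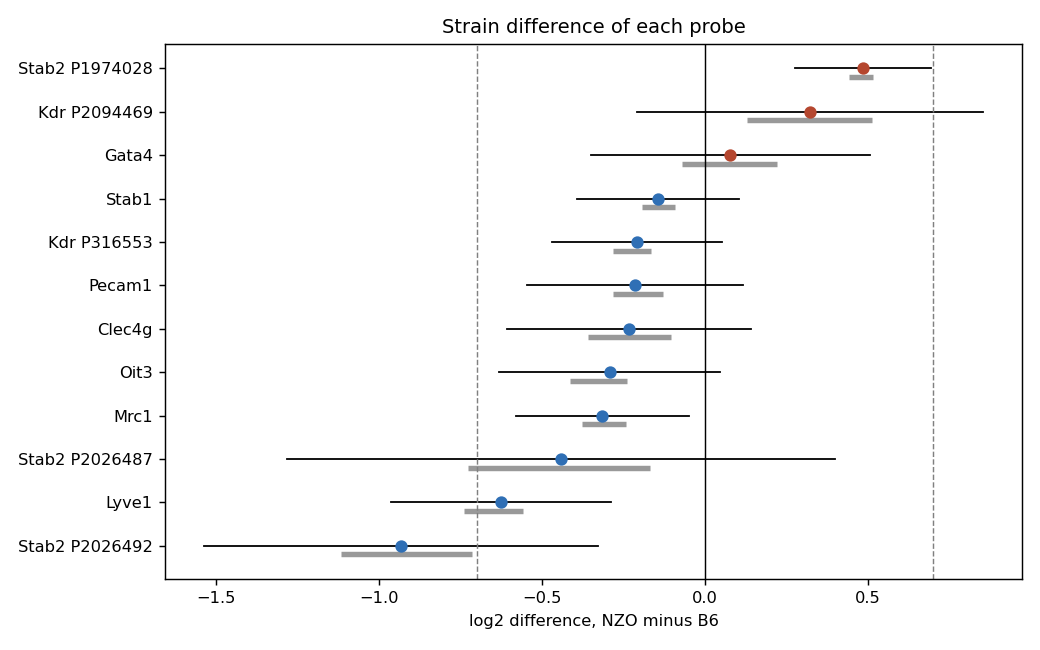
Log2 difference (NZO minus B6) of each member probe (points), with its 95% interval from limma (black lines) and the range of the difference when each of the 8 mice is left out in turn (grey bars); dashed lines mark 0.7 in either direction. The interval lies above 0 for 1 probe (Stab2 P1974028, 0.48) and below 0 for 3 (Stab2 P2026492, -0.93; Lyve1, -0.62; Mrc1, -0.31).

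Beyond the difference between strains, the members did not vary as 1 block among the mice. Over the deviations of each probe from its strain mean on the 8 arrays, 42 of the 66 pairs of member probes were positively correlated, with a median r of 0.30 and a range from -0.80 to 0.92. The highest values were those of Clec4g with Mrc1 (r = 0.92), of Stab1 with Pecam1 (r = 0.90) and of the last Stab2 probe with the 10-spot Kdr probe (r = 0.90). The first and the middle Stab2 probe varied together (r = 0.85), whereas the last Stab2 probe did not follow them (r = -0.34 with the first and -0.09 with the middle one), and the Kdr probes did not follow each other (r = -0.27). All probes of an array share its scaling, and the values describe 8 arrays only. Outside the gene lists described here, the probes most like the mean deviation of the members, among 24453 probes above background on all arrays, were those of 2810007J24Rik (r = 0.99), Ctage5 (r = 0.99), Cd164 (r = 0.99), Zfp367 (r = 0.98) and Tigd2 (r = 0.98). They were picked as the top of 24453 values over 8 arrays. Values this high can arise in such a ranking without a link to the members, and no link was tested.

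Further genes of the sinusoidal endothelium had a median difference close to that of the members. Of the 14 probes tested, from 12 of the 13 genes (Wnt2 was not tested), 1 was higher and 1 lower in NZO by the thresholds of the methods, the same 2 after adjustment, and the median was -0.24. The probe lower in NZO was that of Dnase1l3, a secreted nuclease that degrades DNA in the circulation and is made by sinusoidal endothelium and macrophages. Its levels were 0.05 (NZO 007), 0.55 (NZO 003), 0.08 (NZO 009) and -0.08 (NZO 011) against 1.45 (B6 011), 1.58 (B6 010), 1.12 (B6 015) and 1.72 (B6 009), without overlap. The Dnase1l3 difference was -1.32 (SE 0.18, 2.49-fold lower, limma adjusted p = 0.0017).

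The probe higher in NZO belonged to Maf, a transcription factor of sinusoidal endothelium that other liver cells also express. This Maf probe (A_55_P1962429, transcript ENSMUST00000069009) rose by 1.78 (SE 0.16, adjusted p = 0.000192), whereas the other Maf probe (A_51_P405167, NM_001025577) fell by 0.51 (SE 0.12, adjusted p = 0.0237, limma), so that no single direction can be given for the gene. The first of these was 0.59 with normexp (adjusted p = 0.00161) and 0.70 in the deposited values (adjusted p = 0.00572), both under the limit of 0.7 before rounding, and the second had adjusted p between 0.0537 and 0.0677 (limma) without NZO 003, NZO 011, B6 011, B6 015 or B6 009. Of the first genes of the list, the Fc receptor Fcgr2b differed by 0.34 (SE 0.17, adjusted p = 0.239). The probes of F8, coagulation factor VIII, differed by -0.38 (SE 0.17, adjusted p = 0.192) and by -0.60 (SE 0.12, adjusted p = 0.01, limma), the latter with no overlap of the strains but at -0.13 with normexp (adjusted p = 0.299, limma).

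Genes shared by all endothelium had mostly negative differences. Of the 20 probes tested from 15 genes, 16 were negative, the median difference was -0.26, and 1 was called higher and 1 lower by the thresholds of the methods. After adjustment 1 was higher and 0 lower. The probe lower by the first rule was 1 of 3 for the phosphatase Ptprb (A_51_P290931, -1.14, SE 0.38, adjusted p = 0.0885, limma), which was at -0.21 with normexp and -0.50 in the deposited values, not called in either. This probe was well above background on 3 of 4 NZO and 4 of 4 B6 arrays, so that it was tested only through B6, where it was brighter. The other 2 Ptprb probes, detected on all arrays, differed by -0.27 and -0.26, the latter by -0.11 without NZO 009 and -0.16 without B6 011. Esam, an adhesion molecule of endothelial junctions, rose by 0.76 (SE 0.11, 1.70-fold, limma adjusted p = 0.00213), with levels between 1.15 and 1.52 in NZO and between 0.47 and 0.63 in B6. The difference was under 0.7 with normexp background correction (0.62, adjusted p = 0.000542), in the deposited values (0.51, adjusted p = 0.0124) and without NZO 003 (0.69, adjusted p = 0.00389, limma). Cdh5, the cadherin of endothelial junctions, differed by -0.27 (SE 0.10, adjusted p = 0.106) and the angiopoietin receptor Tek by -0.41 (SE 0.26, adjusted p = 0.356, limma). When each array was scaled to the mean of these pan-endothelial probes instead of its 75th percentile, the median difference of the members was -0.07, that of all probes 0.17, and the differences of Lyve1 and the last Stab2 probe were -0.47 (adjusted p = 0.0509) and 0.64 (adjusted p = 0.00171, limma).

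Endothelium of larger vessels had 0 of 11 probes called in either direction, with a median difference of -0.16. Vwf, the clotting protein stored by these cells, differed by -0.09 (SE 0.09, adjusted p = 0.575) and Cd34 by -0.16 (SE 0.13, adjusted p = 0.476, limma). Sox17, a transcription factor of arterial endothelium that was named after its value was seen, fell by 0.67 at the probe A_55_P2157023 (SE 0.13, adjusted p = 0.00881, limma) without overlap of the strains, just under the limit of 0.7 (with normexp -0.083, adjusted p = 0.473), whereas its other probe differed by -0.41 (SE 0.18, adjusted p = 0.189, limma). Of the ligands and receptors of the vascular endothelial growth factor and angiopoietin families, 0 of 15 probes were called by the thresholds of the methods, with a median of -0.17. The probes of Vegfa, the main ligand of Kdr, differed by -0.04 (SE 0.12, adjusted p = 0.858) and -0.30 (SE 0.20, adjusted p = 0.373). Vegfb, a ligand of Flt1 but not of Kdr, was 0.64 higher in NZO (SE 0.14, adjusted p = 0.0187) and Figf, which encodes the growth factor Vegfd and was named after its value was seen, fell by 0.65 (SE 0.13, adjusted p = 0.00988, limma), both just under the limit of 0.7. Leaving out B6 011, B6 015 or B6 009 moved the adjusted p of Vegfb to between 0.0516 and 0.0592, and with normexp Figf was at -0.13 (adjusted p = 0.256, limma).

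Among the genes of hyaluronan turnover and further scavenger receptors, 0 of 12 probes tested were called higher and 5, from 3 genes, lower, 4 of them after adjustment, with a median of -0.34. Cd44, a hyaluronan receptor of many cell types, fell by 1.33 at the probe A_55_P2064043 (SE 0.14, adjusted p = 0.000385), and its probe A_55_P2166501 differed by -1.81 (SE 0.60, adjusted p = 0.0854, limma). At the latter B6 015 stood at 1.25 and the other B6 mice between -1.66 and -1.31, and without B6 015 the difference was -1.13 (adjusted p = 0.00414, limma). Both probes of Scarb1, the receptor for high density lipoprotein that hepatocytes also express, fell, by 1.36 (SE 0.19, adjusted p = 0.00198) and by 1.40 (SE 0.16, adjusted p = 0.000785, limma). Marco, a scavenger receptor of macrophages, fell by 1.83 (SE 0.36, adjusted p = 0.0114, limma). The hyaluronan synthases Has1 and Has2 were not well above background on any array.

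Among GATA factors and other endothelial transcription factors, 1 of 11 probes tested was called higher, the Maf probe described above, and 1 lower, a probe of the GATA cofactor Zfpm2 (-1.11, SE 0.44, adjusted p = 0.146, limma), which did not pass after adjustment and was called no longer when NZO 003, NZO 009, NZO 011, B6 015 or B6 009 was left out (-1.13 to -0.76, unadjusted p between 0.0599 and 0.0958, limma). It was at -0.098 with normexp and -0.45 in the deposited values, not called in either, and at -1.67 on scan day 1 and 0.05 on day 2. This probe was well above background on 3 of 4 NZO and 4 of 4 B6 arrays and was thus tested only through B6, where it was brighter. The median was 0.01. Gata1 was not well above background on any array, and Gata2 was above it on 2 NZO and 3 B6 arrays only and was not tested.

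**Figure D4:**
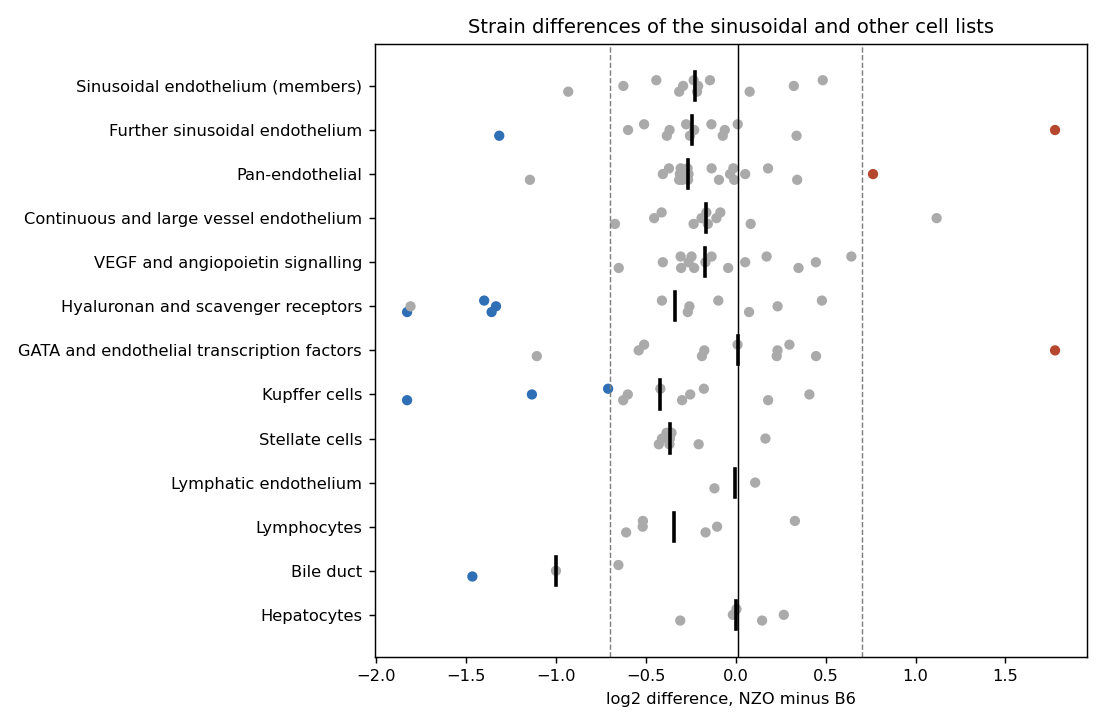
Log2 difference (NZO minus B6, x axis) of each tested probe of the sinusoidal genes and of the other gene lists (rows); black ticks give the median of each list, the solid line the median of all probes tested (0.01) and dashed lines 0.7 in either direction. Coloured points passed the adjusted test with this limit (red higher, blue lower in NZO), of which the member row has none and the Kupffer cell row 3.

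Among the markers of other liver cells, some of those of Kupffer cells were lower in NZO. Of the 11 probes tested from 9 Kupffer cell genes, all of the genes being detected, 0 were called higher and 3 lower, also after adjustment, with 2 positive and 9 negative differences and a median of -0.42. Clec4f, a lectin particular to these cells in mice, had levels between 3.88 and 4.2 in NZO and between 4.95 and 5.46 in B6 and fell by 1.13 (SE 0.13, adjusted p = 0.00085, limma). Cd5l, the brightest gene of the list, fell by 0.71 (SE 0.11, adjusted p = 0.00344), Marco is given above, and Vsig4 differed by -0.30 (SE 0.11, adjusted p = 0.128, limma). The Cd5l difference was under 0.7 when NZO 009, NZO 011, B6 011 or B6 015 was left out (-0.69 to -0.65). The positive differences, named after they were seen, were those of the lysozyme gene Lyz2 (0.41, SE 0.15, adjusted p = 0.109) and of Cd163 (0.18, SE 0.26, adjusted p = 0.691, limma). The summed signal of the list, in multiples of the 75th percentile, was 104.3 (NZO 007), 109.8 (NZO 003), 94.7 (NZO 009) and 96.2 (NZO 011) against 174.8 (B6 011), 157.3 (B6 010), 208.6 (B6 015) and 148.9 (B6 009). No NZO mouse reached a B6 mouse in this sum. It gives most weight to bright probes, among them Cd5l and Clec4f, which were called lower above, and does not stand for the 11 probes alike. The sum over the member probes, with Clec4g as the brightest gene, is set mostly by the bright probes of Clec4g, Stab2 (A_55_P1974028) and Kdr (A_55_P2094469), the last 2 of which had positive differences, and does not stand for the 12 probes alike. It was 124.6, 132.1, 109.3 and 102.4 in NZO and 119.6, 116.9, 105.0 and 115.1 in B6 in the same order of mice. Mrc1, Stab1 and Lyve1 can be expressed by macrophages as well, and the part of Kupffer cells in their differences was not tested.

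The other cell types gave smaller counts. Stellate cell genes had 0 of 8 probes called, with a median of -0.37 (Lrat -0.37, adjusted p = 0.213; Reln -0.38, adjusted p = 0.175, limma), and their summed signal, led by Dcn, lay between 45.2 and 57.5 in NZO and between 59.3 and 69.9 in B6. Bile duct genes had 2 of 3 probes called lower, 1 of them after adjustment, with a median of -1.0. The one that passed was Sox9, a transcription factor of the duct cells, which fell by 1.47 (SE 0.28, adjusted p = 0.00886; with normexp -0.58, adjusted p = 0.0126), whereas the keratins Krt19 (-0.65, adjusted p = 0.0798) and Krt7 (-1.0, adjusted p = 0.0909, limma) did not pass the adjusted test. Krt7 gave the other call and the median, and it was above background on 2 of 4 NZO arrays and thus tested only through B6, where it was brighter. Its difference was -0.64 without NZO 011, -0.045 with normexp and -0.36 in the deposited values, not called in any of these. Lymphocyte genes had 0 of 6 probes called (median -0.34; Ptprc -0.52, adjusted p = 0.083; Cd3e 0.33, adjusted p = 0.578, limma), lymphatic endothelial genes 0 of 2 and hepatocyte genes 0 of 5 (median 0.00). The part of these cells in the differences of the sinusoidal genes was not tested.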

How the data were processed

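Cy3-labelled RNA from 8 livers was hybridised to 1-colour Agilent arrays. The authors deposited the scanner intensity of each spot, read by Agilent Feature Extraction (11.0.1.1 in the file headers, 9.1 in the submitters' processing notes). The processed intensity is background-subtracted and not scaled between arrays. The deposited table of the series held unscaled raw medians (identical at 59305 of 59305 spots per array). Controls and outliers (96 to 137 spots per array) were removed, log2 values were scaled to the 75th percentile and spots of a probe were averaged. A probe was tested if all 4 arrays of either strain had it well above background (27640 of 55681 probes).

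limma 3.58.1 in R 4.3.3 compared NZO with B6 without covariates, with p adjusted by Benjamini-Hochberg over all probes tested. The script was tested on simulated data. Calls required an unadjusted p of at most 0.05, or an adjusted one where stated, and a log2 difference of at least 0.7 in size, the thresholds of the study. The study's Student's test with Welch correction was an alternative. Other tools were Python 3.11.15, pandas 2.3.3, matplotlib 3.10.9 and data.table (version 1.17.8).

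The members and lists were chosen with earlier results of these data known. From each other list, the genes that passed after adjustment (at most 4) and the first 2 of the list were to be named; probes of Ptprb, Zfpm2, Sox17, Lyz2, Cd163 and Figf were named after their values were seen. Nothing states whether mice shared a litter or cage, and p-values measure the spread between these mice only. The sequence of the NZO genome at the probes was not analysed here.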

Additional observations from a re-analysis of the deposited data

Results flagged for a closer look

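Oit3 in NZO 003 had a level of 2.50 (log2, relative to the 75th percentile), whereas the other NZO mice lay between 1.97 and 2.05. It was the only lone value far from its group among the 24 groups of 4 mice examined (12 probes in each of 2 strains), and chance gives about 1 in 20 groups. Leaving out NZO 003 moved the Oit3 difference to -0.42 (adjusted p = 0.0653, limma).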

How the results depend on the processing

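Of the 12 member probes, Stab2 A_55_P2026492, Lyve1, Pecam1 and Mrc1 kept their direction under all alternatives. The higher signal of Stab2 A_55_P1974028 stayed within an adjusted p of 0.05 in 17 of 21 alternatives over the 8 arrays or 7 of them, and the lower signal of Lyve1 in 10 of 21. The former was outside this limit in the deposited values, with slide as a fixed term, with the replicate block described below and with averaged probes. Mrc1 was within this limit in 2 of 21, Stab2 A_55_P2026492 in 5 of 21 and Stab2 A_55_P2026487 in 1 of 21. Signs turned for Clec4g (0.20) and Oit3 (0.13) with slide as a fixed term, and for Gata4 in the deposited table (-0.12) and on scan day 2 (-0.31). Scaling to the pan-endothelial probes put Stab1 at 0.014. This scaling moves the difference of every probe by the same amount, so that the turned sign says nothing about Stab1 itself. With the probes of a gene averaged, Stab2 was at -0.30 and Kdr at 0.057. Over the omissions of single mice, Gata4 ranged from -0.070 (without B6 015) to 0.22. The cause was not tested.

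Member probes called lower (1) numbered 2 with slide as a fixed term and 0 with averaged probes, and 1 to 2 when mice were left out (2 without NZO 003). After adjustment (0) they numbered 1 with normexp, with the deposited table, with probes above background on all 8 arrays and with slide as a random or a fixed term, and 0 to 1 when mice were left out (1 without NZO 003 or NZO 011). The probe called was Stab2 A_55_P2026492, except with slide as a fixed term (Stab2 A_55_P2026487) and without NZO 003 (Lyve1). Probes of the other lists called higher (2) numbered 0 with normexp or the deposited table, 7 with slide fixed, 1 with averaged probes (1 without NZO 003) and 1 to 3 when mice were left out. Those called lower (12) numbered 7 with normexp, 8 with the study's t-test and 10 to 15 when mice were left out. Over all probes, 1427 were higher and 1956 lower. Slide as a fixed term gave 1727 and 2902, the replicate block described below 1748 and 2423, and averaged probes 1045 and 1409 genes. Normexp gave 649 and 614, the deposited values 602 and 1515, probes above background on all arrays 1103 and 1190, median scaling 1702 and 1745, and pan-endothelial scaling 2086 and 1377. The last of these shifted the median of all probes to 0.17 and that of the members to -0.07, and the deposited table to -0.15 and -0.44. Slide as a fixed term, which rests on slide 1 alone, gave a member median of -0.04. The scan day analyses were chosen after seeing the data.

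The mouse numbers 009 and 011 occur in both strains but name different mice. With the number as a replicate block (1 residual degree of freedom), 0 member probes were called lower and 5 list probes higher, Stab2 A_55_P2026487 was at 0.42, Kdr A_55_P2094469 at -0.10 and Gata4 at -0.25. Deviations of same-numbered mice correlated at -0.26 (009) and -0.0040 (011).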
